A study of Mus musculus with 6 samples.

Results

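Tumor-associated endothelial cells (TECs) were isolated from Lewis lung carcinoma (LLC) tumors and profiled by bulk RNA sequencing, and 6 genes of secreted matrix proteins and angiogenesis inhibitors were followed through every library. These were 3 thrombospondins (Thbs1, Thbs2 and Thbs3), Vash1, Sparc and Sparcl1, which are 6 of the 23473 RefSeq gene rows of the table. They were selected on their measured values in NICeCA against control (Ctrl) TECs, so their levels and differences between the groups are given as a description and carry no test. Libraries came from 3 Ctrl and 3 NICeCA male C57BL/6 mice of 8 weeks, each bearing a subcutaneous LLC tumor. NICeCA mice carry the Cdh5 cre ERT2 transgene, a tamoxifen-dependent Cre recombinase driven by the promoter of an endothelial cadherin, together with Rosa26 flox-stop-flox Notch1 ICD. After tamoxifen, Cre removes the stop cassette and cells with an active Cdh5 promoter express the Notch1 intracellular domain, which signals without a ligand. The Ctrl mice are labelled wild type, and the sources read do not state whether they carried the Cre or received tamoxifen. The cells were captured with beads against CD31, an adhesion protein of endothelium that platelets and some leukocytes also carry, and cells of those other types would not have recombined.

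Thrombospondins are large calcium-binding glycoproteins of the extracellular matrix. Thrombospondins 1 and 2 carry type 1 repeats that bind CD36 on endothelial cells and restrain their migration and survival, and thrombospondin 1 also binds CD47, through which it dampens nitric oxide signaling, and can release active TGF-β. Thrombospondin 3 belongs to the pentameric branch of the family, which lacks the type 1 repeats. Vasohibin 1, encoded by Vash1, is made by endothelial cells in response to angiogenic growth factors and removes the terminal tyrosine of α-tubulin together with its small partner SVBP. SPARC and its relative SPARC-like 1 (hevin), encoded by Sparc and Sparcl1, are collagen-binding matricellular proteins that alter adhesion and growth factor signaling. Thrombospondin 1 and SPARC are also stored in platelets, and macrophages, fibroblasts and mural cells can express several of these genes.

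Depth was similar, with 29818454 to 30769916 reads assigned to RefSeq rows in Ctrl and 27793301 to 29194187 in NICeCA libraries. Every NICeCA library was thus slightly shallower than every Ctrl library. Levels are read numbers corrected for gene length and library size (RPKM), as deposited by the authors. Unless another scale is named, the log2 differences below are on the log2(RPKM + 1) scale, NICeCA minus Ctrl, which understates the change of low genes. Over the 12320 rows with a mean of at least 1 RPKM, the median log2 difference was -0.05. In the same rows, 16.5% had all 3 NICeCA libraries above all 3 Ctrl libraries and 24.4% had them all below. In limma, 5.88% of these rows rose and 7.68% fell at an adjusted p under 0.05, the shares to set beside each count of genes below. All 6 genes passed that minimum.

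The TEC label was checked against marker genes. All 15 endothelial markers were detected, led by Plvap and Cd93, and their summed level was 403 to 989 RPKM in Ctrl and 849 to 1063 RPKM in NICeCA libraries. Cd93 and Vwf rose and the other 13 did not pass (limma, adjusted p under 0.05). All 15 had a positive log2 difference, with a median of 0.65. Ctrl replicate 1 had the highest endothelial sum of its group, 989 RPKM against 403 and 526 RPKM. Macrophage markers, led by the complement genes C1qa and C1qc, summed to 2744 to 3866 RPKM in Ctrl and 1808 to 3752 RPKM in NICeCA libraries, more than the endothelial list in all 6 libraries. Of 10 tested macrophage markers 2 rose, Cd68 from 143 to 242 RPKM (limma adjusted p = 0.022) and Fcgr1 from 29.6 to 86.2 RPKM (limma adjusted p = 0.0092), and 0 fell. C1qa and C1qc, with log2 differences of -0.54 and -0.53, did not pass. Mrc1 did not pass either, with a log2 difference of 1.21 (limma adjusted p = 0.10), though its groups did not overlap. Sums of different lists are not measures of cell numbers, and in bulk samples fewer cells of a type and less RNA per cell cannot be told apart.

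Thbs1 (chromosome 2, 118111922 to 118127133, plus strand) was the most abundant of the 6 genes. Its level was 396, 232 and 626 RPKM in Ctrl replicates 1, 2 and 3, and 1432, 1198 and 1762 RPKM in the NICeCA replicates in the same order. All NICeCA libraries lay above all Ctrl libraries, and Thbs1 was the only one of the 6 genes placed that way. The means were 418 ± 198 and 1464 ± 283 RPKM (SD, n = 3 each), a ratio of 3.50, and the log2 difference was 1.90 with a standard error of 0.34. Thbs1 ranked between 92 and 225 among RefSeq rows in Ctrl libraries and between 18 and 37 in NICeCA libraries, ranks counted from the most abundant row. It drew 0.174% to 0.469% of the RefSeq reads in Ctrl libraries and 0.883% to 1.30% in NICeCA libraries. Its share of the summed RPKM of the 3 thrombospondins was 82.3% to 94.04% in Ctrl and 98.5% to 98.9% in NICeCA libraries.

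**Figure D1:**
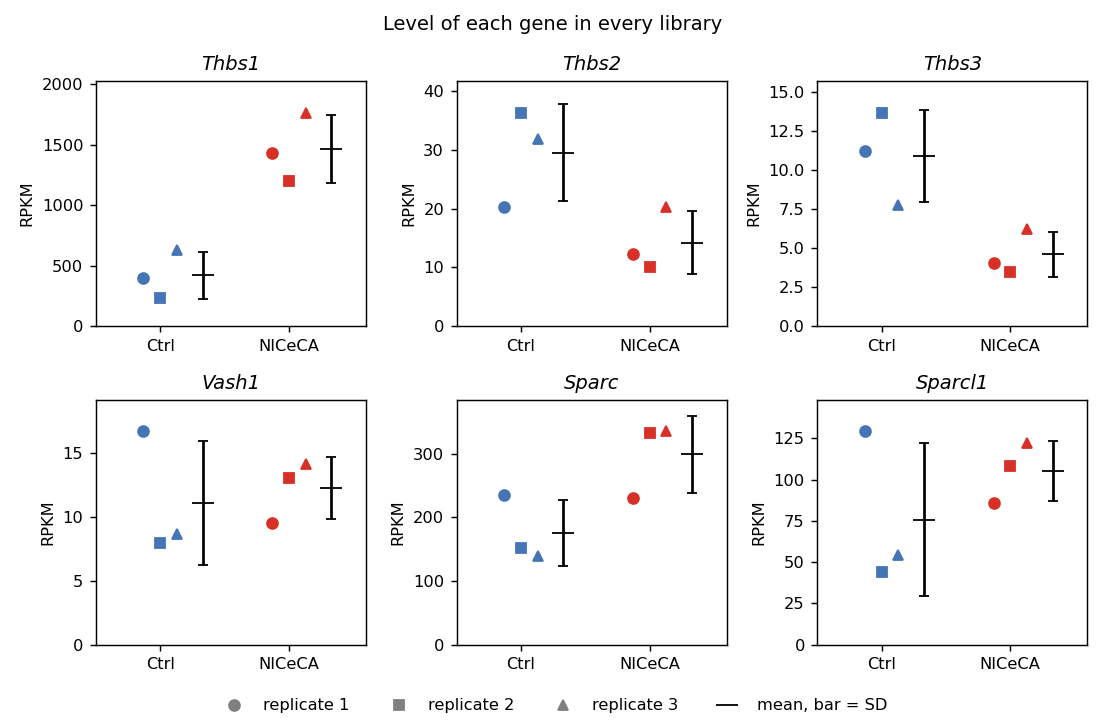
RPKM (vertical axes, each from 0 and with its own scale) of the 6 genes in the 3 Ctrl (blue) and 3 NICeCA (red) libraries, with marker shapes for replicates 1 to 3 and the mean with its SD in black. The NICeCA points of Thbs1, from 1198 to 1762 RPKM, all lie above the Ctrl points, those of Thbs3, from 3.46 to 6.25 RPKM, all lie below, and the groups of the other 4 genes overlap.

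Thbs2 and Thbs3 lay on the other side. Thbs2 (chromosome 17, 14665500 to 14694262, minus strand) had 20.3, 36.3 and 31.9 RPKM in Ctrl replicates 1 to 3 and 12.2, 10.1 and 20.3 RPKM in NICeCA replicates 1 to 3. The groups met at a single point, where NICeCA replicate 3 was marginally above Ctrl replicate 1, and the other libraries were separated. The means were 29.5 ± 8.25 and 14.2 ± 5.40 RPKM (SD, n = 3 each), and the log2 difference was -1.02 with a standard error of 0.29. Thbs3 (chromosome 3, 89215187 to 89226837, plus strand) had 11.2, 13.7 and 7.79 RPKM in the Ctrl replicates and 4.07, 3.46 and 6.25 RPKM in the NICeCA replicates. All 3 NICeCA libraries were below all Ctrl libraries, as in no other of the 6 genes. The means were 10.9 ± 2.96 and 4.60 ± 1.47 RPKM (SD, n = 3 each), and the log2 difference was -1.09 with a standard error of 0.24. Within the NICeCA group, replicate 3 was the highest library for Thbs1, Thbs2 and Thbs3 alike. The remaining thrombospondin genes, Thbs4 and Comp, stayed at or below 0.154 and 0.433 RPKM in every library and were not tested.

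The 250 bases upstream of the start of Thbs2 and Thbs3 are shown because these were the genes with lower values in NICeCA libraries. Both come from RefSeq (GRCm38.p6), on the strand of the gene, at chr17:14694263-14694512 (minus strand) and chr3:89214930-89215179 (plus strand). Capitals mark the core letters bound by RBPJ, the DNA-binding partner of the Notch intracellular domain, in either orientation.
Thbs2: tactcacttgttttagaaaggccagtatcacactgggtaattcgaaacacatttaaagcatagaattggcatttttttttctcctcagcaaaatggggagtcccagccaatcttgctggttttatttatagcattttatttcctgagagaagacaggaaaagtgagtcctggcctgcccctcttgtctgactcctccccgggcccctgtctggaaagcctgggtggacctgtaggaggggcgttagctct
Thbs3: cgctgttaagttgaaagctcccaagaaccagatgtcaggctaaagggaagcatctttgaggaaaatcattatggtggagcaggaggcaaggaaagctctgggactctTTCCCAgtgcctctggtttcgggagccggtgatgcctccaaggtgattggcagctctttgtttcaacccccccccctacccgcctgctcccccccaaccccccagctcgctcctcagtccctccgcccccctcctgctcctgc
Promoter windows were read for Thbs2, Thbs3, Vash1 and Sparc, while the reference used held no promoter entry for Thbs1 or Sparcl1, whose windows were not read. Of the 4 windows read, only that of Thbs3 held the RBPJ core TGGGAA on either strand (read here as its reverse complement TTCCCA), 143 bases before the start. The same letters occurred in 21.6% of 32851 promoter windows of that length. The E-box CACGTG, the letters bound by several bHLH factors including those induced by Notch, was in none of the 4 windows and in 6.02% of all windows. A match is a run of letters and not a site known to be used. The GC content of these windows was 46.8% for Thbs2, 58.8% for Thbs3, 60.0% for Vash1 and 54.0% for Sparc.

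Vash1 (chromosome 12, 86678700 to 86695681, plus strand) had 16.7, 7.92 and 8.66 RPKM in Ctrl replicates 1 to 3 and 9.49, 13.0 and 14.1 RPKM in NICeCA replicates 1 to 3. Ctrl replicate 1 was the highest of the 6 libraries, so the groups overlapped. The means were 11.1 ± 4.85 and 12.2 ± 2.43 RPKM (SD, n = 3 each), and the log2 difference was 0.18 with a standard error of 0.27. The difference was 0.49 without Ctrl replicate 1 and -0.0002 without Ctrl replicate 2, so single Ctrl libraries decided its size.

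Sparc (chromosome 11, 55394501 to 55420080, minus strand) had 235, 152 and 138 RPKM in the Ctrl replicates and 230, 332 and 335 RPKM in the NICeCA replicates. The groups overlapped through NICeCA replicate 1, which was just below Ctrl replicate 1. The means were 175 ± 52.5 and 299 ± 59.9 RPKM (SD, n = 3 each), a ratio of 1.70, and the log2 difference was 0.78 with a standard error of 0.24. Sparcl1 (chromosome 5, 104079109 to 104114088, minus strand) had 129, 43.7 and 54.4 RPKM in the Ctrl replicates and 85.6, 108 and 122 RPKM in the NICeCA replicates. Its highest library was again Ctrl replicate 1, above all NICeCA libraries. The means were 75.8 ± 46.6 and 105 ± 18.3 RPKM (SD, n = 3 each), and the log2 difference was 0.62 with a standard error of 0.37. It was 1.08 without Ctrl replicate 1 and 0.31 without Ctrl replicate 2.

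**Figure D2:**
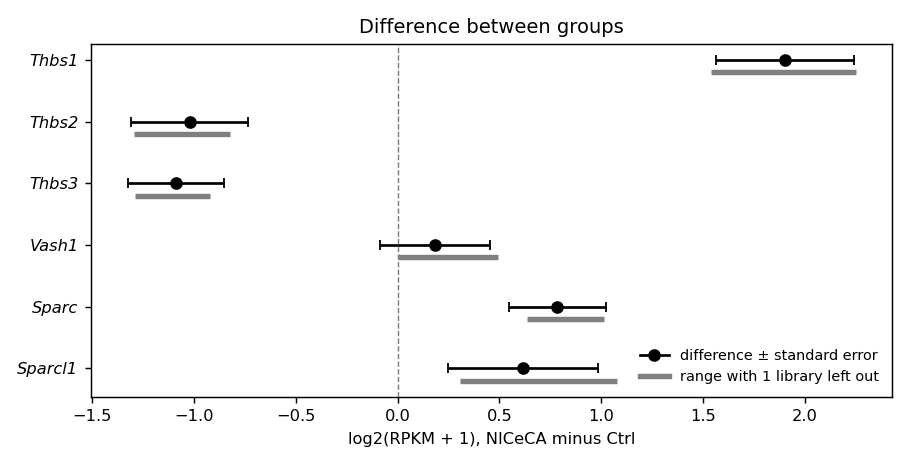
Difference in log2(RPKM + 1), NICeCA minus Ctrl (horizontal axis), for the 6 genes, with black points and bars for the difference and its standard error and grey bars for the range over the 6 fits that leave out 1 library each. The grey bar of Thbs1 runs from 1.54 to 2.25, those of Thbs2 and Thbs3 stay below 0, and that of Vash1 touches 0.

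In all, 2 of the 6 genes had groups that did not overlap, Thbs1 higher, as 16.5% of all tested rows, and Thbs3 lower, as 24.4% of all tested rows. Because the genes were chosen from this contrast, nothing is read from that count. The order of the mean levels was Thbs1, Sparc, Sparcl1, Thbs2, Vash1, Thbs3 in both groups. Thbs1 was 1.53 to 6.24 times Sparc, Sparc was 1.82 to 3.48 times Sparcl1, and Sparcl1 was 1.20 to 10.7 times Thbs2, each in all 6 libraries. The lower end was less settled. Thbs2 was 0.776 to 4.58 times Vash1 and Vash1 was 0.579 to 3.76 times Thbs3, with the order kept in 5 of 6 libraries for each pair. The ratio of Thbs1 to Thbs2 was 6.40 to 19.6 in Ctrl and 86.7 to 119 in NICeCA libraries. A ratio of genes within a library does not depend on how libraries are scaled.

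Because the endothelial marker sum differed between libraries, each gene was also divided by it, an alternative chosen after seeing the data. The log2 differences of these ratios have no added 1, so they are not on the same scale as those above. As such a ratio, Vash1 was 0.0165 to 0.0196 in Ctrl and 0.0112 to 0.0143 in NICeCA libraries, so the groups no longer overlapped. Its log2 difference was -0.49, against 0.18 on the log2(RPKM + 1) scale. Sparc was 0.238 to 0.377 in Ctrl and 0.270 to 0.337 in NICeCA libraries, a log2 difference of 0.09. Sparcl1 was 0.104 to 0.131 and 0.101 to 0.123, a log2 difference of -0.07. In RPKM, Ctrl replicate 1 was the highest Ctrl library for all 3 of these genes, and it was also the one with the highest endothelial sum.

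The thrombospondins kept their direction on the same scale. Thbs1 was 0.400 to 1.19 times the endothelial sum in Ctrl and 1.13 to 1.77 times in NICeCA libraries, a log2 difference of 1.21, and the groups then overlapped through Ctrl replicate 3 and NICeCA replicate 2. Thbs2 had a log2 difference of -1.78 and Thbs3 of -1.95.

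**Figure D3:**
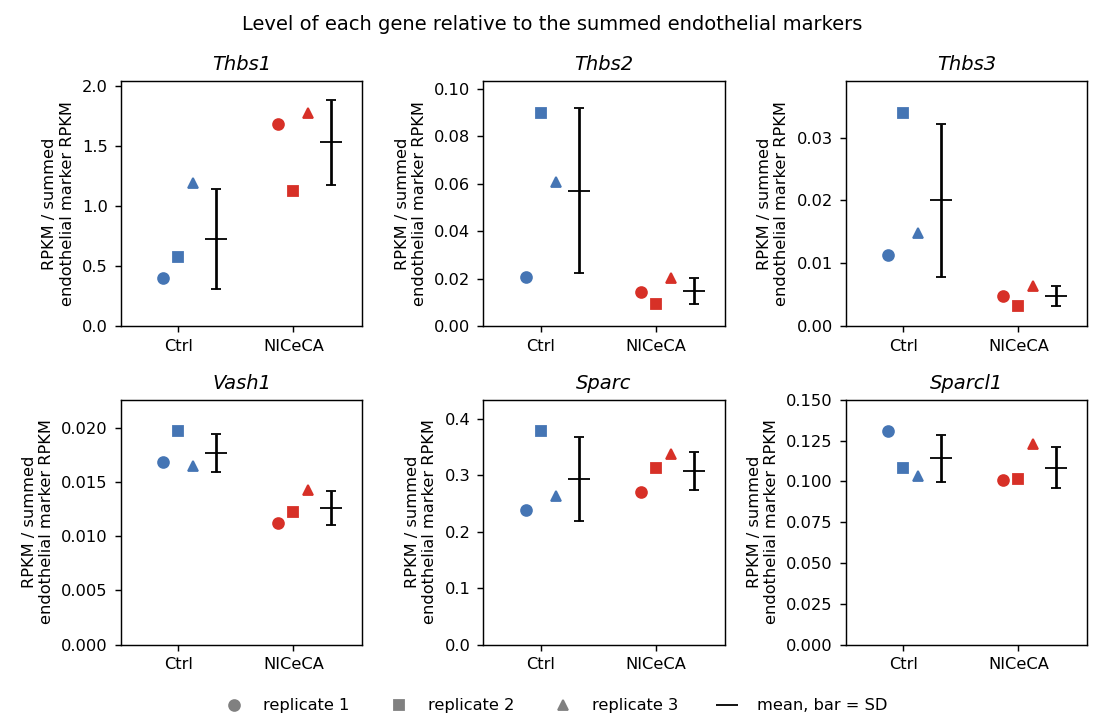
RPKM of each of the 6 genes divided by the summed RPKM of 15 endothelial markers in the same library (vertical axes, each from 0), for Ctrl (blue) and NICeCA (red) replicates 1 to 3, with the mean and SD in black. Vash1 is at 0.0112 to 0.0143 in NICeCA and 0.0165 to 0.0196 in Ctrl libraries, while Sparc and Sparcl1 overlap between the groups.

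Markers of other cells differed between the groups beside these results. Neutrophil markers, led by S100a9 and S100a8, summed to 158 to 319 RPKM in Ctrl and 643 to 1745 RPKM in NICeCA libraries, and 7 of 9 tested members rose (limma, adjusted p under 0.05). Platelet and megakaryocyte markers summed to 18.2 to 31.4 and 183 to 290 RPKM, a difference carried by the chemokine gene Ppbp, the only one of 4 tested members that rose, while the platelet collagen receptor gene Gp6 was near 0 in both groups. Mural cell markers summed to 64.7 to 109 and 137 to 225 RPKM, with 3 of 9 tested members higher, against 5.88% of all rows. Fibroblast markers summed to 336 to 568 in Ctrl and 177 to 333 RPKM in NICeCA libraries, and of 9 tested members 3 fell, among them Col3a1, and 1 rose. Col3a1, at 270 to 454 RPKM in Ctrl and 103 to 226 RPKM in NICeCA libraries, made up most of each sum. Of the 9 members, 6 had a positive log2 difference, and the median was 0.22. Epithelial and tumor cell markers summed to 18.5 to 32.0 and 12.7 to 20.1 RPKM, with Epcam, Krt8 and Krt19 near 0 throughout. Of 3 tested members of that list Krt18 fell, from 4.19 to 1.71 RPKM (limma adjusted p = 0.038), and Hmga2, the most abundant, had a log2 difference of -1.26 and did not pass (limma adjusted p = 0.060). T and NK cell markers summed to 37.2 to 69.4 and 41.0 to 60.1 RPKM, and 0 of 9 passed (limma), against 1 at an unadjusted p under 0.05 and 0 with voom on recovered reads. Within the NICeCA group, replicate 3 had the highest neutrophil, platelet, mural, fibroblast and epithelial sums and the lowest macrophage sum. That library was also the highest for all 3 thrombospondins. Among Ctrl libraries, replicate 3 had the highest neutrophil and platelet sums and the highest Thbs1. It had the lowest Thbs3 (7.79 RPKM), and Thbs2 was highest in Ctrl replicate 2. The part of these cells in the levels of the 6 genes was not tested.

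**Figure D4:**
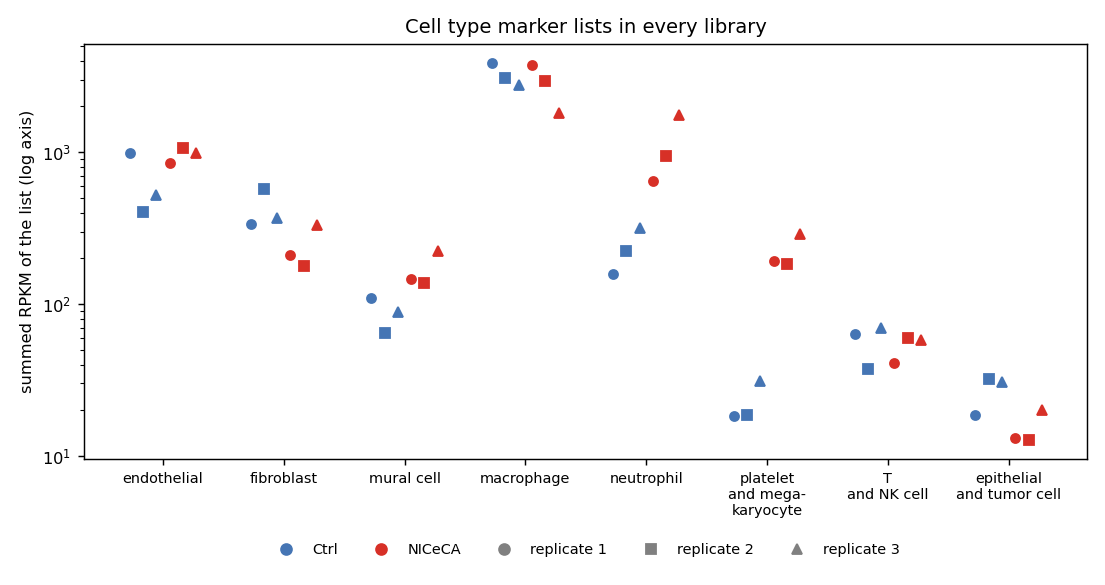
Summed RPKM of 8 cell type marker lists (log vertical axis) in Ctrl (blue) and NICeCA (red) replicates 1 to 3. Neutrophil, platelet and mural sums are higher in all NICeCA libraries, fibroblast sums are lower in all of them (177 to 333 against 336 to 568 RPKM), and the groups overlap in the other 4 lists. Most of each fibroblast sum is Col3a1.

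For each of the 6 genes, the tested rows with the nearest profile were found by the largest absolute difference in centred log2(RPKM + 1) over the 6 libraries. For Thbs1 these were Pgf, which encodes placental growth factor, at 0.21, and Thbd, which encodes thrombomodulin, at 0.28, and only 3 rows lay within 0.3. For Thbs2 they were Ddr2, a collagen receptor tyrosine kinase, at 0.12 and Lum, the collagen-binding proteoglycan lumican, at 0.14. For Thbs3 they were Ssc5d at 0.10 and Wdr60 at 0.13, for Vash1 Snn at 0.09 and Pcdh17 at 0.12, and for Sparc Fbln2, the matrix protein fibulin 2, at 0.10 and Gm16596 at 0.17. For Sparcl1 both Nid2, the basement membrane protein nidogen 2, and Olfml2a lay at 0.17. The profiles of the other 5 genes had 28 to 92 rows within 0.3.

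The genes around the 6 inhibitors were taken from lists of receptors, partners and other inhibitors, and these genes could be tested. The comparison asks whether their RNA differed between NICeCA and Ctrl TECs, with limma on log2(RPKM + 1) and Benjamini-Hochberg adjustment over all 12320 rows. Of 47 tested list genes, 5 rose (10.6%, against 5.88% of all rows) and 2 fell (4.26%, against 7.68% of all rows), and 40 did not pass. Their median log2 difference was 0.24. The 7 calls became 11 without Ctrl replicate 1, which included 6 of the 7 and lacked Sdc1, 3 without NICeCA replicate 1 and 2 without NICeCA replicate 2, and 4 with quantile normalization. Of the 7, quantile normalization kept Mmp9, Pf4 and Timp2 and lost Sdc1, Angpt2 (adjusted p = 0.053), Lum (adjusted p = 0.055) and Flt1 (adjusted p = 0.069), in limma.

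Among thrombospondin receptors, 1 of 12 tested genes rose and 0 fell, against 5.88% and 7.68% of all rows, with a median log2 difference of 0.35. In limma 7 had an unadjusted p under 0.05, of which Lrp1 was lower and the other 6 were higher in NICeCA libraries. The share of all rows at that unadjusted level was not counted, so nothing is read from the 7. The gene that rose was Sdc1, which encodes the heparan sulfate proteoglycan syndecan 1, from 27.4 ± 9.72 to 52.3 ± 8.94 RPKM (SD, n = 3 each), with a log2 difference of 0.96, a standard error of 0.26 and a limma adjusted p of 0.048. It passed in only 1 of the 6 fits with a library left out, the one without Ctrl replicate 2. Sdc4, another syndecan, was at 102 and 179 RPKM in Ctrl and NICeCA libraries (limma adjusted p = 0.066), and it passed without NICeCA replicate 3 (limma adjusted p = 0.041). Calr, the calreticulin that works as a thrombospondin co-receptor at the cell surface, had a log2 difference of 0.40 (limma adjusted p = 0.083) and passed with trimmed mean scaling (limma adjusted p = 0.048), and the integrin gene Itgb1 one of 0.29 (limma adjusted p = 0.22). The receptors Cd36 and Cd47, named here after their values were seen because they bind thrombospondin 1, had log2 differences of 1.06 (limma adjusted p = 0.066) and 0.48 (limma adjusted p = 0.14). Cd36 was at 39.9, 15.9 and 21.2 RPKM in the Ctrl and 42.3, 69.7 and 44.4 RPKM in the NICeCA replicates, so its groups did not overlap. Cd36 passed without Ctrl replicate 1 and Cd47 without Ctrl replicate 3. Lrp1, the endocytic receptor that clears thrombospondins, also named after its values were seen, was at 109 and 78.3 RPKM, a log2 difference of -0.47 (limma adjusted p = 0.14), and it passed with quantile normalization.

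Among thrombospondin signaling partners, 1 of 7 tested genes rose, against 5.88% of all rows. This was Mmp9, a gelatinase that thrombospondins can bind, from 6.63 ± 3.02 to 65.2 ± 25.9 RPKM (SD, n = 3 each), a log2 difference of 3.10 with a standard error of 0.38 and a limma adjusted p of 0.011, and it passed in all 6 fits with a library left out. Mmp9 is also strongly expressed by neutrophils, whose markers were higher in the same libraries, and their part in its level was not tested. Tgfb1 (0.21), Adamts1 (0.61, limma adjusted p = 0.059) and Fyn (-0.18) did not pass, values being log2 differences. Tgfb1 was at 0.05 without Ctrl replicate 1 and at 0.47 without Ctrl replicate 3, where it passed (limma adjusted p = 0.049). Of the vasohibin partners, 0 of 3 passed (limma), with 1 at an unadjusted p under 0.05 and 0 with voom. Vash2, the paralog of Vash1, was at 2.14 RPKM in Ctrl and 0.967 RPKM in NICeCA libraries (limma adjusted p = 0.11), Ccdc23, an older symbol of Svbp, at 14.9 and 17.9 RPKM (limma adjusted p = 0.18), and Ttl, the ligase that restores the tubulin tyrosine, had a log2 difference of -0.33 (limma adjusted p = 0.19).

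Of the SPARC family and partners, 0 of 6 tested genes passed (limma), with 0 at an unadjusted p under 0.05 and 0 with voom. The log2 differences were -0.03 for Fstl1, a secreted SPARC relative, -0.04 for Stab1, a scavenger receptor that takes up SPARC, -0.07 for Vcam1 and -0.08 for Ilk.

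Of the list of other angiogenesis inhibitors, 3 of 19 tested genes rose and 2 fell, against 5.88% and 7.68% of all rows. Whether each listed gene acts as an inhibitor in these tumors was not tested. Pf4, the chemokine platelet factor 4, rose from 130 ± 37.1 to 1017 ± 119 RPKM (SD, n = 3 each), a log2 difference of 2.98 with a standard error of 0.21 and a limma adjusted p of 0.0069, and it passed in all 6 fits with a library left out. Platelets store it and macrophages can express it, and Ppbp rose in the same libraries, and the part of those cells was not tested. Angpt2, the TIE2 ligand that endothelial cells release, rose from 15.7 ± 5.43 to 36.1 ± 4.89 RPKM (SD, n = 3 each), a log2 difference of 1.20 with a limma adjusted p of 0.032. Flt1, which encodes VEGF receptor 1 and its soluble VEGF trap, rose from 7.66 ± 3.46 to 15.8 ± 1.53 RPKM (SD, n = 3 each), a log2 difference of 1.03 with a limma adjusted p of 0.044. Receptor and trap were not told apart. Timp2, an inhibitor of matrix metalloproteinases, fell from 86.6 ± 4.37 to 48.0 ± 4.98 RPKM (SD, n = 3 each), a log2 difference of -0.84 with a limma adjusted p of 0.016. Lum fell from 17.3 ± 4.96 to 8.02 ± 2.44 RPKM (SD, n = 3 each), a log2 difference of -1.01 with a limma adjusted p of 0.043. With a library left out, Timp2 passed in 5 of 6 fits, all but the one without NICeCA replicate 2, and Angpt2 in 3, those without a Ctrl replicate. Lum passed in 2, without Ctrl replicate 1 and without NICeCA replicate 3, and Flt1 in 1, without Ctrl replicate 1.

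**Figure D5:**
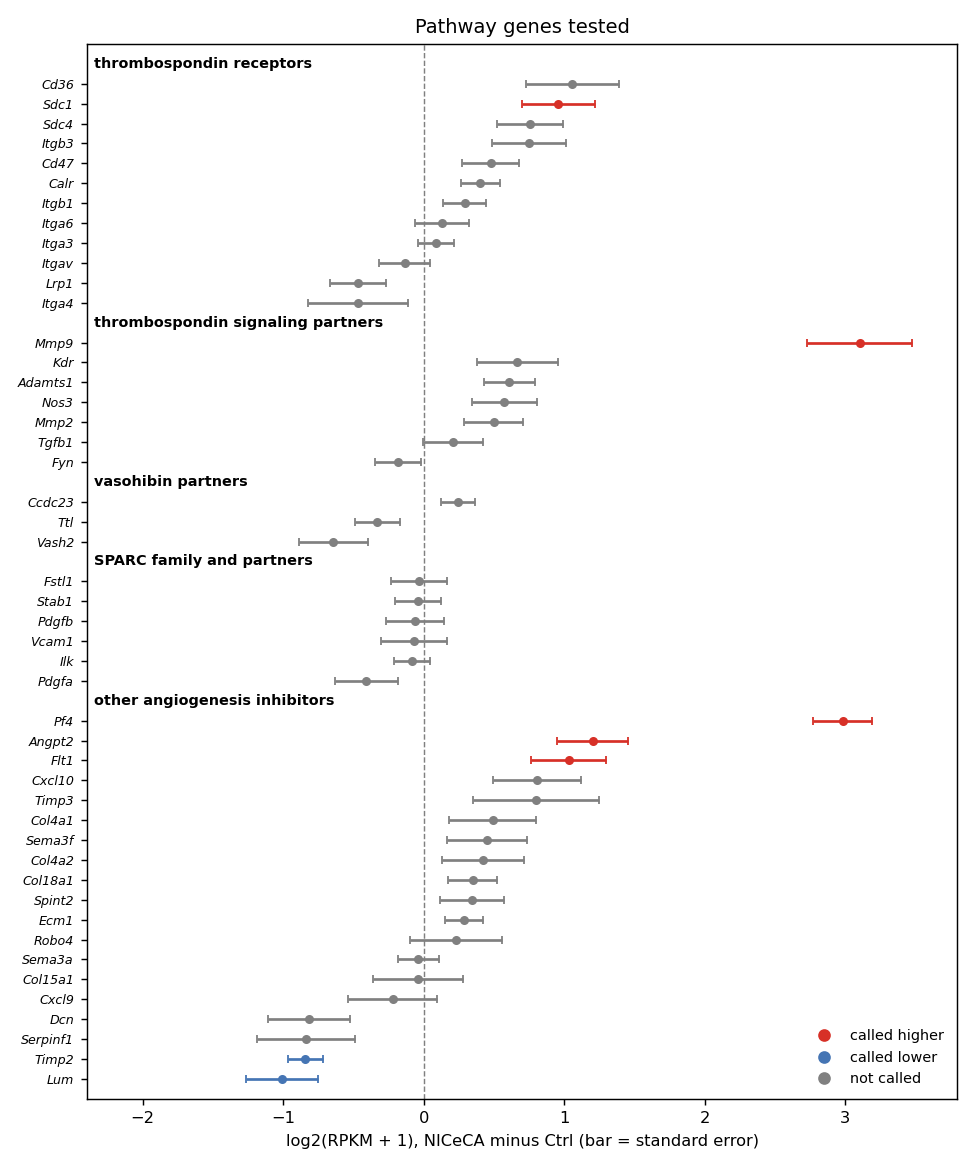
Difference in log2(RPKM + 1), NICeCA minus Ctrl (horizontal axis), with its standard error, for the 47 tested genes of 5 lists around the inhibitors, in red where higher and in blue where lower at a limma adjusted p under 0.05. Mmp9 (3.10) and Pf4 (2.98) stand apart on the higher side, and Lum (-1.01) and Timp2 (-0.84) are the lower genes that passed.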

How the data were processed

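Bulk RNA-seq of CD31-captured TECs from 3 Ctrl and 3 NICeCA mice was analysed, and libraries were grouped by their genotype labels. According to the submitters' processing notes, reads were aligned with TopHat2. The notes name mm9, while 99.3% of 21665 symbol-matched RefSeq rows overlapped their GRCm38 place, so coordinates are given as in the table and read as GRCm38. The authors deposited RPKM for 56826 rows without pooling replicates, and 33353 FANTOM3 rows, some of which overlap RefSeq genes, were not tested. The counting tool and whether it used strand are not stated in the sources read. Without strand, reads of Thbs1 and Gm29233, Thbs3 and Mtx1, or Sparcl1 and Gm26703, which overlap on opposite strands, cannot be told apart. Whole reads were recovered from RPKM for 100.0% of values under 1000 reads (tolerance 0.05 of a read).

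RefSeq rows with a mean of at least 1 RPKM were compared as log2(RPKM + 1) with limma 3.58.1 in R 4.3.3 (eBayes with trend, two-sided, Benjamini-Hochberg over all rows, threshold 0.05), after the procedure had been tested on simulated data. Of 12320 rows, 725 rose and 946 fell. The methods describe the mice as pairs without saying which libraries form a pair, and the fit was unpaired. Its p-values set the difference between the groups against the spread within them, which includes any effect of the pairs. The 6 genes, the lists and the tests were chosen with earlier results of these data known. Named list genes were all those that passed and, where fewer than 4 did, the most abundant up to 4 per list. Also named were the most abundant markers, except of the mural and T and NK lists, and defining markers near 0. The 2 nearest profiles of each of the 6 genes were named as well. Cd36, Cd47, Lrp1, Vwf, Cd68, Fcgr1, Mrc1 and Krt18 were named outside this rule. Alternatives were the replicate number as a block, each library left out, a pseudocount of 0.1, a minimum mean of 5 RPKM or none, trimmed mean scaling, quantile normalization and limma voom on the recovered reads. Division by the endothelial marker sum was added after seeing the data.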

Additional observations from a re-analysis of the deposited data

How the results depend on the processing

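Of the 84 alternative values of the 6 genes, 77 moved by less than the spread between replicates, 4 moved further and 3 changed sign. The replicate block and the other minimum means cannot alter a gene's own log2 difference, so those values were fixed in advance. For list genes only the adjusted p could change there. Leaving out a library cannot move a difference of the 6 genes by as much as the spread between replicates. Those values could therefore only change sign, and the 77 are not read as a measure of stability. The 4 that moved further were Thbs1, Thbs2, Thbs3 and Sparc relative to the endothelial markers, without the added 1. On that scale all 6 genes moved further or changed sign. The changes of sign were Vash1 without Ctrl replicate 2 (log2 differences from -0.0002 to 0.49 with a library left out), and Vash1 (-0.49) and Sparcl1 (-0.0734) relative to the endothelial markers. The alternative values counted for named list genes leave out Cd36, Cd47 and Lrp1, which were named after their values were seen. Of these 258 values, 212 kept direction and side of the threshold and 31 no longer passed. A further 3 newly passed (Sdc4, Tgfb1 and Calr, each in 1 setting) and 12 changed sign. With quantile normalization Calr came to -0.0061 and Itgb1 to -0.0645, and with trimmed mean scaling Fstl1 came to 0.0243 and Stab1 to 0.0178. With a library left out, log2 differences ran from -0.21 to 0.0918 for Fstl1, from -0.21 to 0.0688 for Stab1 and from -0.28 to 0.11 for Vcam1.

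Over all tested rows, 1671 genes passed. The count was 771 with quantile normalization and 51 with no filter on low values, and 27 to 1661 with a library left out, with 27 without NICeCA replicate 2, 105 without NICeCA replicate 1, 379 without Ctrl replicate 2 and 1035 without Ctrl replicate 1. Of the calls, 43.4% were higher, against 58.1% with trimmed mean scaling, 57.8% with quantile normalization and 33.8% with voom. Of the list genes, 7 passed, against 4 with quantile normalization, 1 with no filter and 2 to 11 with a library left out (2 without NICeCA replicate 2, 3 without NICeCA replicate 1 and 11 without Ctrl replicate 1). The cause of these shifts was not tested. With the replicate number as a block, 536 genes passed, 61.0% of them higher, and 5 list genes, Sdc1 and Flt1 no longer among them. The main fit has no block because the study names no paired test. Deviations of libraries with the same number correlated at 0.12, -0.34 and -0.18 for replicates 1, 2 and 3. Between Ctrl and NICeCA libraries with different numbers they correlated at -0.32 to 0.44. The numbers were not taken as the pairs of mice that the methods mention, and no other pairing was fitted.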

Other observations

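Transcript models of the FANTOM3 set overlie all 6 genes, with 9 such rows in the table, 5 on the same strand and 4 on the opposite strand. Where a model shares exons with a gene on the same strand it can count the same reads, and it is then no independent measure. A model at the 3′ end of Thbs2 had 12.4 to 23.2 RPKM in Ctrl and 6.34 to 12.3 RPKM in NICeCA libraries. A model at the 3′ end of Vash1 had 8.62 to 19.0 and 11.5 to 16.8 RPKM, and a spliced model of Sparc had 116 to 193 and 184 to 269 RPKM. On the opposite strand, the model across Thbs1 reached 0.475 RPKM in Ctrl and 1.04 RPKM in NICeCA libraries.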
